A study of Mus musculus with 2 samples.

Results

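The transcripts of 10 genes of the Ets family, among them *Spi1*, which encodes PU.1, were examined at a pair of early B cell stages, pre-pro-B and pro-B. The members were a list of gene names (*Spi1*, *Spib*, *Ets1*, *Ets2*, *Fli1*, *Erg*, *Elf1*, *Elf4*, *Etv6* and *Gabpa*), and they held 11 of the 26968 protein-coding RefSeq entries and 10 of 20250 named genes. RNA-seq was available as 1 library per cell type. The pre-pro-B library came from *Ebf1* -/- cells of female fetal liver, and the pro-B library from *Rag2* -/- cells of adult male bone marrow, both on a C57BL/6 background. Both were grown on OP-9 stromal cells with 5 ng/mL Il-7, and the pre-pro-B medium also held 10 ng/mL Scf and 10 ng/mL Flt3l. Each population is arrested at its stage by the loss of its gene, so stage cannot be told apart from genotype, sex, age, tissue or medium. With 1 library each, no difference below has a replicate check or a p-value.

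Ets factors bind DNA through a shared domain, the Ets domain, which recognises a short core with the bases GGAA. PU.1 and its relative Spi-B (from *Spib*) form one branch of the family. PU.1 directs myeloid and early lymphoid genes in a dose-dependent manner, and Spi-B acts beside it in B cells. Ets1 and Ets2, Fli1 and Erg, and Elf1 and Elf4 are further pairs of close relatives, Etv6 is a repressor required by blood stem cells in bone marrow, and Gabpa is the DNA-binding subunit of GABP, a factor of many housekeeping genes.

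The libraries were sequenced to a nominal 90000000 reads of 97 bases. Levels are given as FPKM, fragments per kilobase of transcript relative to the aligned fragments of the library, so that genes of different length may be set side by side. Intervals are the 95% intervals that Cuffdiff, the authors' program, attached to each FPKM, and they describe uncertainty within a library only. *Ebf1* showed an FPKM of 64.0 in the *Ebf1* -/- library and of 273 in the other, and *Rag2* had 22.9 in the *Rag2* -/- library and 34.5 in the other. These values cover whole transcripts and do not show which exons the reads came from. Of the B lineage markers, *Cd79a*, a chain of the B cell receptor, had 0.200 in the pre-pro-B library and 135 in the pro-B library, and *Vpreb1*, a chain of the pre-B cell receptor, had 0.359 and 335. The 5 progenitor markers, among them *Kit* and *Cd34*, summed to 1003 in the pre-pro-B library and to 3.82 in the pro-B library. All 5 were lower by 2-fold or more in the pro-B library, where 19.1% of all genes with 1 FPKM or more in either library were. Only *Cd34* reached 1 FPKM there, so the other progenitor markers could only be lower.

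The sequence that separates the products of *Ets1* is shown first, since *Ets1* alone among the members had more than 1 transcript. Its RefSeq transcripts NM_011808 (5060 bases) and NM_001038642 (4799 bases) differ in length by 261 bases. On mm9, the annotation GENCODE M1 holds a pair of *Ets1* transcripts of exactly these lengths that differ by 1 exon, exon 6 of 8, at chr9:32545684-32545944 on the plus strand. The exon is coding over its whole length, spans 87 codons and leaves the reading frame unchanged when skipped. It encodes a region known to restrain DNA binding by Ets1, and the shorter protein lacks that restraint.

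Ets1 exon 6: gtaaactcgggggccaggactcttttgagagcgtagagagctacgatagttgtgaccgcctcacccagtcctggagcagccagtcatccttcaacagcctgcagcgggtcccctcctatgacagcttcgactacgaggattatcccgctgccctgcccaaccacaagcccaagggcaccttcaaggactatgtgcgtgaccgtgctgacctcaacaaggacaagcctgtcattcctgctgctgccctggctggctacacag

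Reads from the other exons fit both transcripts, so that the division between them rests on this exon and its junctions.

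*Spib* was the member with the largest difference. Its FPKM was 13.6 in the pre-pro-B library (limits 2.13 and 25.0) and 90.9 in the pro-B library (21.6 and 160). Each FPKM lay outside the other library's interval, while the intervals themselves overlapped between 21.6 and 25.0. The pro-B level was 6.70-fold higher, a log2 ratio of 2.66 after a pseudocount of 1 FPKM was added to both values, the scale of all log2 ratios here. Among the genes of each library with 1 FPKM or more there, *Spib* stood at rank 5132 of 10032 in the pre-pro-B library and at 678 of 9348 in the pro-B library. In bulk RNA, fewer cells that hold a transcript and less of it per cell cannot be told apart, here or for any other member. The gene lies on chromosome 7 of mm9 (51781365 to 51787441).

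*Spi1* went the other way. It lies on chromosome 2 (90922547 to 90955913, under its older name *Sfpi1* in the annotation), and its FPKM was 19.1 in the pre-pro-B library (limits 0.445 and 64.9) and 3.34 in the pro-B library (0.0296 and 14.1). The pre-pro-B level was 5.71-fold higher, with a log2 ratio of -2.21. The intervals overlapped widely, and only the pre-pro-B FPKM lay outside the other library's interval.

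Within this branch the pair stood apart in the pro-B library only. In the pre-pro-B library the FPKM of *Spi1* was 1.41 times that of *Spib*, with intervals that overlapped almost wholly, so that no order is shown there. In the pro-B library the FPKM of *Spib* was 27.2 times that of *Spi1*, and the lower limit of *Spib*, 21.6, lay above the upper limit of *Spi1*, 14.1. The sum of both was 32.6 and 94.2, so that the higher *Spib* level outweighed the lower *Spi1* level in the listed values. These sums carry no interval.

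**Figure D1:**
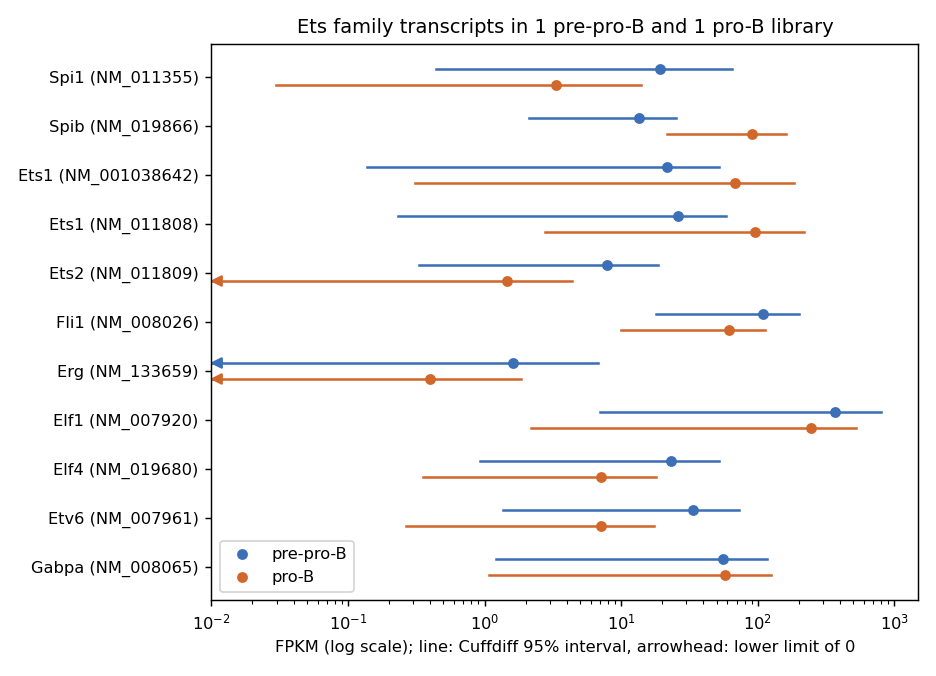
FPKM of the 11 Ets family transcripts (points, log axis) with Cuffdiff's 95% intervals (lines) in the pre-pro-B library (blue) and the pro-B library (orange), an arrowhead marking a lower limit of 0. The intervals of *Spib* barely meet, between 21.6 and 25.0, while those of *Gabpa* almost coincide.

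*Ets1*, a factor of lymphoid cells that helps Pax5 to activate the gene of the B cell receptor chain Cd79a, was the second member higher by 2-fold or more in the pro-B library. Its FPKM summed over both transcripts was 47.7 and 164, which is 3.43-fold, with a log2 ratio of 1.76. The longer transcript, NM_011808, had 25.9 in the pre-pro-B library (limits 0.231 and 58.4) and 95.5 in the pro-B library (2.77 and 219). The shorter one, without exon 6, had 21.8 (0.138 and 52.0) and 68.2 (0.310 and 185). Both transcripts were thus higher in the pro-B library, by 3.68-fold and 3.13-fold. The longer one made up 54.3% of the *Ets1* FPKM in the pre-pro-B library and 58.3% in the pro-B library, a difference far smaller than the width of these intervals. In pro-B cells *Ets1* was the second most abundant member, after *Elf1*, and stood at rank 310 of all 9348 genes with 1 FPKM or more.

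Its close relative *Ets2* showed an FPKM of 7.87 in the pre-pro-B library (limits 0.333 and 18.6) and of 1.46 in the pro-B library (0 and 4.34). This was 5.39-fold lower in the pro-B library, a log2 ratio of -1.85, from about 2520 and 467 fragments at the nominal depth. The *Ets1* FPKM was 6.06 times that of *Ets2* in the pre-pro-B library and 112 times in the pro-B library. The interval of each *Ets1* transcript overlapped that of *Ets2* in both libraries.

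*Etv6* (chromosome 6, 133985718 to 134220176) showed an FPKM of 33.8 in the pre-pro-B library (limits 1.36 and 72.7) and of 7.08 in the pro-B library (0.264 and 17.3). The level in the pro-B library was 4.78-fold lower, a log2 ratio of -2.11. *Elf4* (chromosome X, 45764223 to 45816309), which restrains the division of cytotoxic T cells, had 23.3 (limits 0.919 and 51.8) and 7.10 (0.351 and 18.0), 3.28-fold lower with a log2 ratio of -1.59. For both genes the pre-pro-B FPKM lay above the upper limit in the pro-B library, while the pro-B FPKM lay inside the wide pre-pro-B interval. *Elf4* is X-linked. The donors differed in sex, so that for this gene, as for every other member, sex and stage cannot be told apart.

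The other 4 members lay within 2-fold on the log2 scale used. *Elf1*, a lymphoid factor, was the most abundant member in both libraries, with an FPKM of 366 in the pre-pro-B library (limits 7.03 and 802) and of 246 in the pro-B library (2.17 and 522). It ranked 64 and 165 among all genes, and the level was 1.49-fold lower in the pro-B library, a log2 ratio of -0.57. *Fli1*, a factor of blood stem cells and megakaryocytes, showed an FPKM of 109 (limits 18.1 and 201) and of 61.3 (9.97 and 113), with a log2 ratio of -0.82. Together with *Spib* it had the narrowest intervals of all members, the upper limit being 11.1 and 11.3 times the lower one, against 114 and 240 times for *Elf1*.

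*Gabpa* had nearly the same FPKM in both libraries, 55.5 (limits 1.21 and 117) and 57.7 (1.08 and 126). Its log2 ratio of 0.05 changed sign, to -0.04, when both libraries were rescaled to the same total. *Erg*, which maintains blood stem cells, was the least abundant member, with 1.61 (limits 0 and 6.78) and 0.398 (0 and 1.84), worth about 321 and 79.3 fragments. Without a pseudocount its level was 4.05-fold lower in the pro-B library, and with one the log2 ratio was -0.90, so the pseudocount decided on which side of 2-fold it fell. Both of its intervals include 0.

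Counted together, 2 of the 10 members were higher by 2-fold or more in the pro-B library (*Spib* and *Ets1*) and 4 were at least 2-fold lower (*Spi1*, *Ets2*, *Etv6* and *Elf4*). Among the 10528 genes with 1 FPKM or more in either library, 12.2% were higher and 19.1% were lower by the same rule. All 10 members met that minimum, and *Erg* met it only through the pre-pro-B library. The median log2 ratio was -0.86 over the members and -0.14 over all 10528 genes. In so short a list a single gene moves the share a lot, and the counts are given as a description. Of the 11 transcripts, 0 had intervals that did not overlap between the libraries, where 4.41% of all 12734 transcripts with 1 FPKM or more did.

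**Figure D2:**
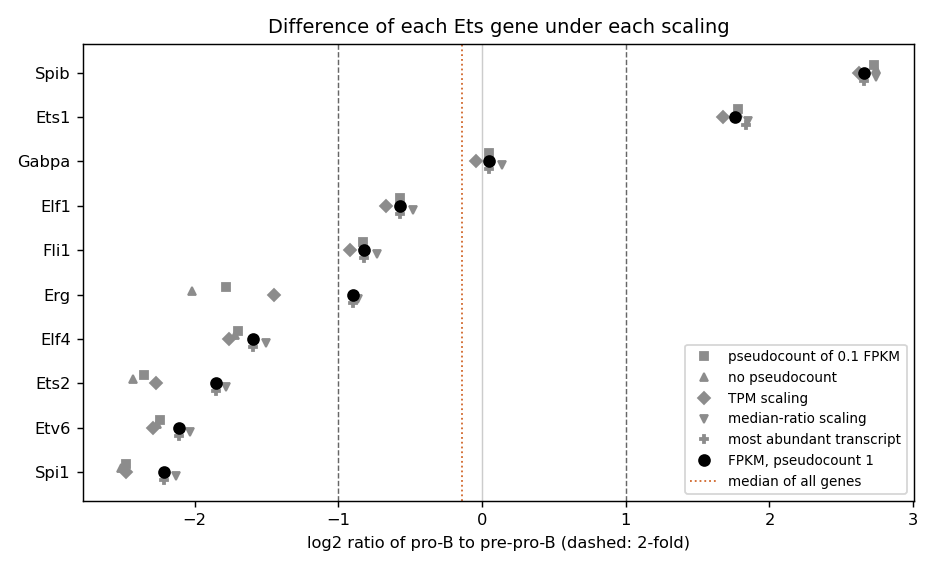
Log2 ratio, pro-B over pre-pro-B, for each member (black points), with the ratios under other pseudocounts, scalings and with the most abundant transcript alone (grey symbols), the 2-fold limits (dashed) and the median of all genes (dotted, -0.14). *Spib* and *Ets1* lie above the upper limit and *Elf4*, *Ets2*, *Etv6* and *Spi1* below the lower one in every setting, and *Erg* moves across it.

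The listed FPKM of the 10 members summed to 678 in the pre-pro-B library and to 639 in the pro-B library, with a different make-up. Neither the sums nor the shares carry an interval, and that of *Elf1* alone ran from 7.03 to 802 and from 2.17 to 522. The near equality of the sums and the shares below thus describe the listed values only. *Elf1* held 54.1% of the sum in the pre-pro-B library and 38.5% in the pro-B library. *Ets1* held 7.04% and 25.6%, and *Spib* 2.00% and 14.2%. *Fli1* held 16.1% and 9.59%, *Gabpa* 8.19% and 9.03%, and *Spi1* 2.81% and 0.523%. In the pre-pro-B library the order from the highest was *Elf1*, *Fli1*, *Gabpa*, *Ets1*, *Etv6*, *Elf4*, *Spi1*, *Spib*, *Ets2* and *Erg*. In the pro-B library it was *Elf1*, *Ets1*, *Spib*, *Fli1*, *Gabpa*, *Elf4*, *Etv6*, *Spi1*, *Ets2* and *Erg*. With the 11 transcripts in order, the intervals of all 10 neighbouring pairs overlapped in each library, so no neighbours stood apart.

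**Figure D3:**
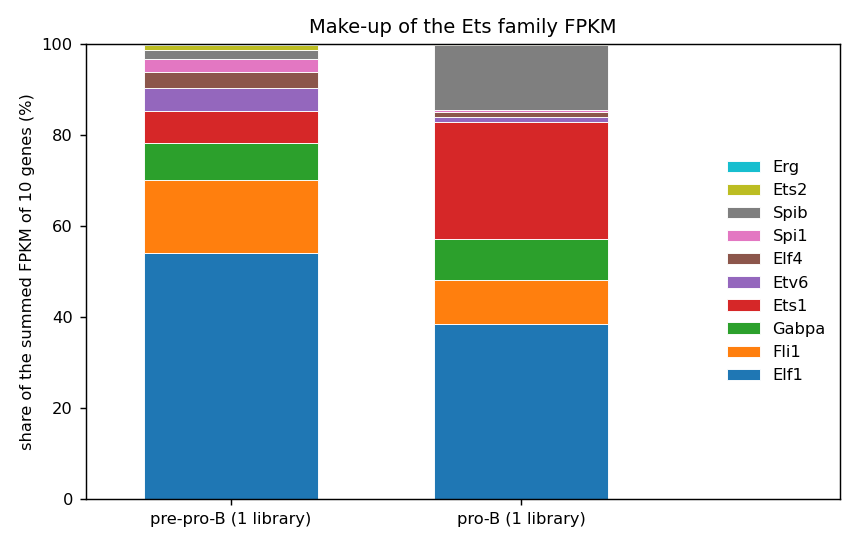
Share of each of the 10 genes in their summed FPKM (percent, stacked from 0) in the pre-pro-B and the pro-B library. *Elf1* holds the largest share in both, and *Ets1* and *Spib* go from 7.04% and 2.00% to 25.6% and 14.2%.

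Some members are neighbours in the genome. *Fli1* (chromosome 9 of mm9, 32229793 to 32348974) and *Ets1* (32443806 to 32565405) lie 94.8 kb apart on opposite strands, with 0 annotated coding genes between them. In pre-pro-B cells the FPKM of *Fli1* was 2.28 times that of *Ets1*, and in the pro-B library the FPKM of *Ets1* was 2.67 times that of *Fli1*. In both libraries the interval of *Fli1* overlapped that of each *Ets1* transcript. *Erg* (chromosome 16, 95580776 to 95808200) and *Ets2* (95923682 to 95942658) are arranged in the same way, 115.5 kb apart with 0 coding genes between them, and both were lower in the pro-B library.

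Relatives so close could share reads, which Cuffdiff divides among their transcripts. Exact stretches of 32 bases were therefore compared between the coding transcripts of the annotation. Of the 45 pairs of members, 1 shared any. *Elf1* and *Elf4* have in common a run of 36 bases, shown because it was the one exact match among the members. It lies at chr14:79970676-79970711 on the plus strand and at chrX:45771059-45771094 on the minus strand of mm9.

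Elf1 and Elf4: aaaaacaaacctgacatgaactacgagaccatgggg

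For *Elf4* this run was 0.0818% of its stretches. *Elf1* shared 1.29% of its stretches with other genes, and 5 members (*Spi1*, *Ets1*, *Ets2*, *Fli1* and *Gabpa*) shared 0. *Elf1* (chromosome 14, 79881001 to 79982283) overlaps *Wbp4* by 75 bases and *Gabpa* (chromosome 16, 84835170 to 84864024) overlaps *Atp5j* by 701 bases, each on the opposite strand, and the libraries were strand-specific. The FPKM of *Atp5j* was 159 and 217, and that of *Wbp4* 20.1 and 30.8.

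RefSeq promoters, each of 250 bases before to 50 bases after a gene start on GRCm38.p6, were found for 7 members, with 11 promoters in all. *Spi1*, *Ets1* and *Fli1* were not searched here. Each promoter was searched on both strands for CCGGAAGT, a site of Ets1 and GABP type, for GAGGAAGT, a site of PU.1 type, and for GGAANNGAAA, the composite element that PU.1 or Spi-B binds with Irf4 or Irf8. All of these contain the core GGAA. The first was in 3.89% of all 32851 promoters and in 0 of the 11, and the composite element was in 2.72% and in 0. The PU.1 type was in 3.20% of all promoters and in 1 of the 11, that of *Gabpa*, starting 113 bases before the gene start. It is shown in capitals at chr16:84834981-84835048 of GRCm38.p6, plus strand.

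Gabpa promoter: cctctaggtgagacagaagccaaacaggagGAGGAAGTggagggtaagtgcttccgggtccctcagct

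A match of letters is a description and shows no binding.

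The other 16 Ets genes examined were mostly low. Of these, 8 reached 1 FPKM or more in either library, with a median log2 ratio of 0.25. In the pro-B library 2 of the 8 were higher by 2-fold or more and 0 lower, where 12.2% and 19.1% of all genes were. *Etv4* reached 1 FPKM in the pro-B library only and so could only be higher there. *Erf* reached it in the pre-pro-B library only and so could only be lower in the other. *Etv5*, a factor induced by growth factor signals, showed an FPKM of 1.98 and 7.13 (log2 ratio 1.45), and its relative *Etv4* had 0.0765 and 2.25 (1.59). *Elk1* had 2.00 and 4.28, and *Erf*, a repressor, had 2.12 and 0.861, a log2 ratio of -0.75. Within 2-fold lay *Elk4* (79.1 and 129), *Elf2* (53.3 and 40.0), *Elk3* (33.4 and 29.0) and *Etv3* (11.0 and 7.24). The third member of the PU.1 branch, *Spic*, a factor of red pulp macrophages, was listed at 0 in both libraries, and so were *Elf3*, *Etv2* and *Spdef*. Over all 26 Ets genes the summed FPKM was 861 in the pre-pro-B library and 859 in the pro-B library, of which the 10 members held 78.7% and 74.3%.

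Among 15 partners of Ets factors, 14 reached 1 FPKM or more. Of these, 6 were at least 2-fold higher and 5 lower by 2-fold or more in the pro-B library, where 12.2% and 19.1% of all genes were. Of the 5, *Lmo2* and *Tal1* (1.18 and 0.0501) reached 1 FPKM in the pre-pro-B library only and so could only be lower in the other. Among the 12 partners with 1 FPKM or more in both libraries, 6 were higher and 3 lower, where 918 and 998 of 8852 genes were. *Pax5* showed an FPKM of 1.13 and 239, a log2 ratio of 6.82. *Irf4*, which PU.1 and Spi-B recruit to the composite element, had 9.90 and 272 (4.65). *Lmo2* had 26.9 and 0.930 (-3.85) and *Lyl1* had 22.4 and 3.28 (-2.45), and both belong to the factors that bind with *Fli1* and *Erg* in blood stem cells. *Myb* (280 and 431), *Cbfb* (128 and 178) and *Gabpb2* (28.4 and 39.3) lay within 2-fold. A pair of genes was singled out after the values were seen. *Irf8*, the alternative partner at the composite element, had 66.9 and 27.0, a log2 ratio of -1.28, opposite in sign to that of *Irf4*. *Gabpb1*, the subunit that gives GABP its activation domain, had 17.7 and 44.1, a log2 ratio of 1.27, beside the nearly equal *Gabpa* values of 55.5 and 57.7.

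Of 17 genes known as targets of PU.1, 14 reached 1 FPKM or more, of which 9 were lower by 2-fold or more in the pro-B library, 2 were higher and 3 lay within 2-fold, where 19.1% of all genes were lower and 12.2% higher. Of the 9, *Cybb*, *Ncf1*, *Lyz2*, *Flt3* and *Ptprc* reached 1 FPKM in the pre-pro-B library only and so could only be lower in the other. Among the 9 targets with 1 FPKM or more in both libraries, 4 were lower and 2 higher, where 998 and 918 of 8852 genes were. The median log2 ratio of the 14 was -2.25. The largest differences were those of *Fcer1g*, the signalling chain of Fc receptors (395 and 1.46, log2 ratio -7.33), of *Flt3*, the receptor of Flt3l (303 and 0.916, -7.31), of *Ptprc*, which encodes Cd45 (269 and 0.917, -7.14), and of *Ncf1*, an oxidase subunit (98.8 and 0.168, -6.42). *Ptprc* has 3 transcripts in the table, and Cd45 is a surface protein of nearly all blood cells, so that its value near 0 in the pro-B library may be a failed estimate, which could not be settled from the FPKM. The interleukin 7 receptor gene *Il7r* (349 and 424), *Csf2ra* (9.80 and 6.72) and *Btk*, a kinase of B cell receptor signalling (12.6 and 8.85), lay within 2-fold. The 2 that were higher, singled out after their values were seen, were the B cell surface gene *Cd72* (43.2 and 265, 2.59) and *Tlr4* (3.07 and 16.6, 2.11). PU.1 shares many of these targets with Spi-B and with other factors, and nothing here ties a target's level to *Spi1*.

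**Figure D4:**
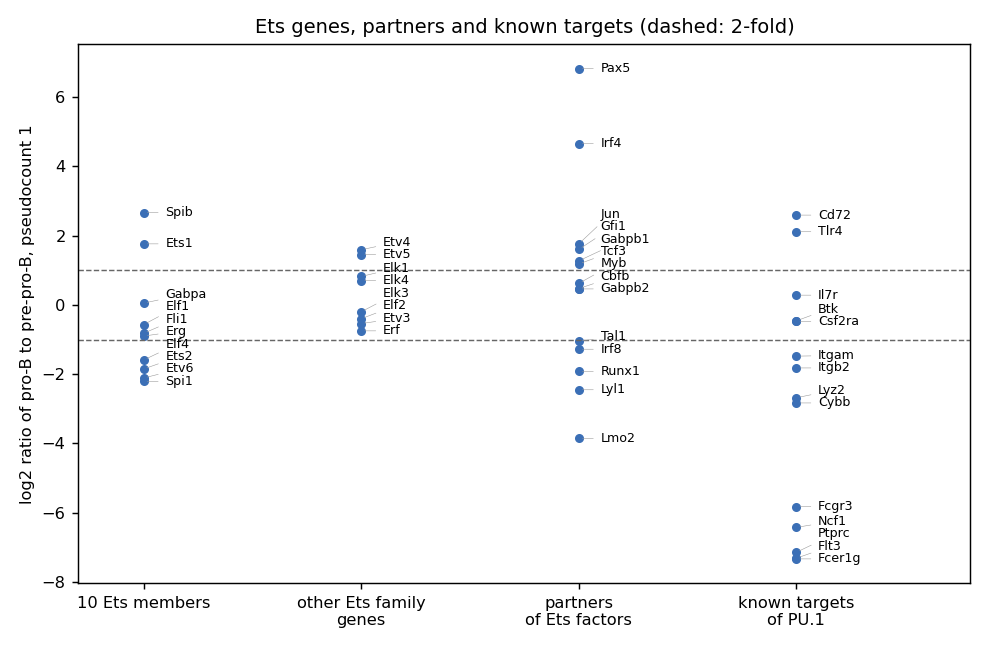
Log2 ratio, pro-B over pre-pro-B with a pseudocount of 1 FPKM, for the 10 members and for the listed genes with 1 FPKM or more in either library: 8 other Ets genes, 14 partners and 14 known targets of PU.1, with the 2-fold limits dashed. Other Ets genes stay between -0.75 and 1.59, and the targets reach down to -7.33.

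Markers of other cells were also examined, each with a single difference between the libraries. Of 8 myeloid markers, 4 reached an FPKM of 1: *Fcgr3* (218 and 2.88), *Mpo* (35.7 and 0.122), *Itgam* (19.7 and 6.40) and *Lyz2* (5.39 and 0). These 4 were lower by 2-fold or more in the pro-B library, where 19.1% of all genes were. Of them, *Mpo* and *Lyz2* reached 1 FPKM in the pre-pro-B library only and so could only be lower in the other. *Fcgr3*, *Itgam* and *Lyz2* are also among the targets of PU.1 counted above. The whole list summed to 279 and 9.40, while *Csf1r*, *Csf3r* and *Cd14* stayed below an FPKM of 0.2 and *Elane* was listed at 0 in both. Of 6 T lineage markers, 3 reached an FPKM of 1 and the list summed to 77.1 and 3.13. These 3 were *Lck* (38.0 and 2.996), *Cd3g* (36.8 and 0.0351) and *Cd4* (1.15 and 0). All 3 were lower by 2-fold or more in the pro-B library, where 19.1% of all genes were. *Cd3g* and *Cd4* reached 1 FPKM in the pre-pro-B library only and so could only be lower in the other. *Cd3e* stayed below that level in both, at 0.239 and 0.102. Of 7 stromal markers, 4 reached an FPKM of 1, and the list summed to 18.2 and 7.74. The lower sum came from *Pdgfrb* (15.9 and 0.377), while *Col1a1*, *Col1a2* (0.707 and 2.82), *Col3a1* and *Sparc* were higher in the pro-B library, and the median log2 ratio of the 4 was 0.81. Of 6 markers of erythroid cells and megakaryocytes, 1 did, with sums of 1.68 and 0.343. Endothelial cells also express *Erg* and *Fli1*. Of their 5 markers *Pecam1*, which blood cells share, had 80.1 and 45.2, *Cdh5* and *Kdr* were below 0.1 and *Tek* and *Emcn* were listed at 0. The part of such cells in the differences of *Spi1* and the other members was not tested.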

How the data were processed

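The members and gene lists were chosen with earlier results of these data known. RNA was depleted of rRNA and small RNAs and sequenced as strand-specific single-end reads. The authors trimmed the reads, aligned them to mm9 with TopHat, allowing up to 20 alignments per read (version 1.5 in the submitters' processing notes), and ran Cuffdiff 2.1.1 on RefSeq transcripts with multi-read and bias correction and no scaling between libraries. The deposited values are FPKM with 95% intervals, a status and the transcript length (other columns). All 11 member transcripts had the status OK in both libraries. A second deposited table holds the authors' own comparison (fold changes, p-values and q-values) and was not used.

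Here, 26173 of 26580 protein-coding accessions were named with RefSeq's GRCm38.p6 gene table, and FPKM were summed per name. Log2 ratios used a pseudocount of 1 FPKM, counts a minimum FPKM of 1 in a library and a limit of 2-fold. Named from each list were the 4 genes with the largest ratio and up to 4 within 2-fold. Fragments were approximated as FPKM times length in kb times the nominal reads of 90000000, scaled to the unit of FPKM, an upper estimate. Intervals cover error within a library only. Positions are those of GENCODE M1 on mm9. Alternatives were pseudocounts of 0.1 and 0, TPM and median-ratio scaling, the most abundant transcript, the first row of each accession, and other minimum levels. Python 3.11.15, numpy 2.4.6, pandas 2.3.3 and matplotlib 3.10.9 were used. One B lineage marker, and the summary of the list that holds it, is not reported here.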

Additional observations from a re-analysis of the deposited data

How the results depend on the processing

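Some of the recomputed member ratios could not differ from the main ones. No member accession occurred more than once, so the first row of each accession left every ratio as it was. With 1 transcript in 9 members, the most abundant transcript could move *Ets1* only. Of 60 member ratios under 6 alternatives, these fixed ones included, 57 stayed on their side of 2-fold and 0 changed direction among those past it. The 3 others are those of *Erg*, whose log2 ratio of -0.90 became -1.78 with a pseudocount of 0.1 FPKM, -2.02 with none and -1.45 after scaling to TPM. TPM scaling shifted the ratio of the libraries by -0.09 and median-ratio scaling by 0.09 on the log2 scale. TPM scaling also raised all values while the pseudocount stayed at 1, so the change of *Erg* under it was mostly one of the pseudocount. Among genes with 1 FPKM or more in each library, 998 of 8852 instead of 2013 of 10528 genes were lower. Lower by the same rule were 4 of 9 instead of 9 of 14 targets of PU.1 and 3 of 12 instead of 5 of 14 partners. Among the other Ets genes 1 instead of 2 was higher. Genes low in 1 library no longer entered these counts. With a pseudocount of 0.1, with none and after TPM scaling, 1 instead of 0 other Ets genes was lower, and with the first 2 of these settings 3 instead of 2 were higher. With no minimum level, 20250 instead of 10528 genes entered. No paired analysis was possible because each cell type has 1 library. For the same reason no library could be left out. At the nominal depth *Erg* rests on about 321 and 79.3 fragments, and the wide intervals of abundant members such as *Elf1* (7.03 to 802 FPKM) show that a high level alone did not make a value precise.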
